A study of Homo sapiens with 18 samples.

Results

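The genes described here are 9 regulators of messenger RNA decay: ZFP36, ZFP36L1 and ZFP36L2, BTG1, BTG2 and BTG3, TOB1 and TOB2, and ELAVL1. They were picked by symbol in the GENCODE 29 annotation, out of 58051 gene identifiers in the deposited tables, of which 57447 matched that annotation. All 9 were found, and all 9 were among the 15055 genes that passed the filter on low counts. RNA was measured in KBM7 cells, a line established from a human chronic myelogenous leukaemia, after 5 h of treatment. The solvent control was DMSO, THZ531 was used at 600 nM, and dCeMM-1, dCeMM-2, dCeMM-3 as well as dCeMM-4 were each used at 10 times their own EC50. There were 3 libraries per group in 6 groups, made from poly-A RNA, to which synthetic ERCC and SIRV RNAs had been added as spike-in. KBM7 is 1 cell line grown in culture, and the labels do not name separate cultures for them, so p-values measure the spread between these libraries, which may be technical. As background from the published work on these compounds, dCeMM-1 acts on the splicing factor RBM39, dCeMM-2, dCeMM-3 and dCeMM-4 deplete cyclin K, the partner of the kinases CDK12 and CDK13, and THZ531 inhibits those kinases.

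ZFP36 (tristetraprolin), ZFP36L1 and ZFP36L2 are zinc-finger proteins that bind AU-rich elements in the 3′ untranslated regions (UTRs) of short-lived mRNAs and recruit the CCR4-NOT complex, which shortens the poly-A tail. BTG1, BTG2 and BTG3 and the related TOB1 and TOB2 carry an APRO domain that contacts the deadenylase subunits of CCR4-NOT, and TOB1 and TOB2 also bind the cytoplasmic poly-A-binding protein. ELAVL1 (HuR) binds AU-rich sequences as well and is known for stabilising the mRNAs that it binds. Several of these genes are immediate-early or antiproliferative genes in blood cells, with short-lived mRNAs of their own.

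In the GRCh38 build, with GENCODE 29 gene bounds, all 9 are protein-coding. ZFP36 (ENSG00000128016) lies at chr19:39406813-39409412 on the plus strand, ZFP36L1 (ENSG00000185650) at chr14:68787660-68796253 on the minus strand, and ZFP36L2 (ENSG00000152518) at chr2:43222402-43226609 on the minus strand. BTG1 (ENSG00000133639) lies at chr12:92140278-92145897 on the minus strand, BTG2 (ENSG00000159388) at chr1:203305491-203309602 on the plus strand, and BTG3 (ENSG00000154640) at chr21:17593653-17612947 on the minus strand. TOB1 (ENSG00000141232) at chr17:50862223-50867978, TOB2 (ENSG00000183864) at chr22:41433492-41447023 and ELAVL1 (ENSG00000066044) at chr19:7958579-8005659 are all on the minus strand. Their counts summed over all 18 libraries ran from 5121 for BTG2 to 37067 for ELAVL1.

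The mRNAs of the 9 genes hold AU-rich motifs of the kind that the ZFP36 proteins and ELAVL1 bind, and the longest motif found is shown because these genes moved in the libraries. The pentamer ATTTA occurs in the annotated 3′ UTR of all 9, against 70.3% of the 12279 tested protein-coding genes with such a region. The heptamer TATTTAT occurs in 8 of them (TOB1 lacks it), against 32.9%, and the nonamer TTATTTATT in 4, against 8.53%. Genes whose 3′ UTR length lies within the span of the 9, from 440 to 4904 bases, hold the heptamer in 37.1% and the nonamer in 8.73% of cases. Lengths were not matched within that range, so the part of length in these shares was not tested. Each search used the sense strand of 1 transcript per gene, the shorter motifs lie inside the longer ones, and a match is a run of letters, not a measured binding site. The 4 nonamers are given 5′ to 3′ on the strand of the gene, with the nonamer in capitals.
ZFP36, chr19:39409197-39409223, plus strand, GRCh38: atgacgactTTATTTATTctaatatga
ZFP36L1, chr14:68788078-68788104, minus strand, GRCh38: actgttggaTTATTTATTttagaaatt
ZFP36L2, chr2:43223449-43223475, minus strand, GRCh38: ctatttaacTTATTTATTatcttgtga
ELAVL1, chr19:7961829-7961855, minus strand, GRCh38: tttatgtatTTATTTATTgaagtgtga

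ZFP36L1, BTG1, BTG3 and TOB1 had pairwise correlations of 0.859 to 0.970 across the libraries, as described further on, and the 120 bases before each of their RefSeq start sites (GRCh38.p14) are shown for that reason. In RefSeq's table of promoter windows, 7 of the 9 genes had an entry, which excludes ZFP36L2 and ELAVL1, and both ZFP36L1 and TOB1 had 2 start sites. Capitals mark TGACG on either strand, the core of the cAMP response element; in the second ZFP36L1 window matches on both strands overlap and form the full palindrome. Of these 6 stretches 3 hold TGACG, against 13.3% of all 35116 windows cut to the same length. In the full windows of 300 bases, 4 of the 7 genes with an entry hold it, against 24.6% of all windows. A gene with 2 windows counts if either holds it. TGACG was picked from several motifs searched in these windows. The GC box (GGGCGG) was found in 6 of the 7 genes (44.95% of all windows) and CCAAT in 4 (34.6%). The full cAMP response element, the EGR site and the TATA box were each found in 1 gene. AP-1, CArG, p53 and NF-kB sites were found in 0. Whether TGACG sets the correlated genes apart was not tested. Gene counts do not tell which start site was in use.
ZFP36L1, first start site, chr14:68796244-68796363, minus strand: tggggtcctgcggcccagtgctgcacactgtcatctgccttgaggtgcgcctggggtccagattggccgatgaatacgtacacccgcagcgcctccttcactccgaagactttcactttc
ZFP36L1, second start site, chr14:68793417-68793536, minus strand: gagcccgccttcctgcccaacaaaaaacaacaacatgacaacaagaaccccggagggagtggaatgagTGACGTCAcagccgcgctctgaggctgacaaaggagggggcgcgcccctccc
BTG1, chr12:92145847-92145966, minus strand: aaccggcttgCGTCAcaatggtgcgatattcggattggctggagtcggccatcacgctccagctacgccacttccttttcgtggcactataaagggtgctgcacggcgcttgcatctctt
BTG3, chr21:17612902-17613021, minus strand: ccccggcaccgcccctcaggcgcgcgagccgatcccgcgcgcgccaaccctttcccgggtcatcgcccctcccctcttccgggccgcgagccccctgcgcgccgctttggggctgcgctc
TOB1, first start site, chr17:50867979-50868098, minus strand: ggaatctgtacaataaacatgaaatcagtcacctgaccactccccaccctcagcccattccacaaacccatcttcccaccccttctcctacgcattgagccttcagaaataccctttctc
TOB1, second start site, chr17:50866355-50866474, minus strand: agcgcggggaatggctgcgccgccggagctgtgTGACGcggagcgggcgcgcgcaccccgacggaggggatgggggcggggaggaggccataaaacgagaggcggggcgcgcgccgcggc

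Gene counts summed to between 4598576 and 17943571 per library, with the lowest in DMSO replicate 3. Of the cell type markers, 9 of 10 listed haematopoietic and myeloid genes were above 1 CPM (reads of a gene scaled to a common library size) on average, MPO was at 0.160 CPM, and all 6 erythroid markers were below 1 CPM, 3 of them at 0. Of 6 lymphoid markers 3 exceeded 1 CPM (CD3D at 99.0, CD79A at 5.76 and CD3E at 2.64), and PECAM1 from the fibroblast and endothelium list stood at 34.8 CPM. The summed haematopoietic markers ran from 1829 to 1928 CPM in DMSO from 1210 to 1327 CPM in dCeMM-4 and from 719 to 937 CPM in dCeMM-2, dCeMM-3 and THZ531, while the summed lymphoid markers ran from 74.2 to 81.3 CPM in DMSO and from 131 to 164 CPM in the latter 3 groups. The fibroblast and endothelium list summed to 45.5 to 47.4 CPM in DMSO and to 18.1 to 20.9 CPM in dCeMM-4. Reads placed at several positions, which were not counted, made up 27.7 to 29.5% in DMSO, 27.0 to 31.8% in dCeMM-1 and 28.7 to 29.9% in dCeMM-4, but 35.6 to 36.8% in dCeMM-2, 38.6 to 44.3% in dCeMM-3 and 36.1 to 39.7% in THZ531. The part of these markers and of this share in the results below was not tested.

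Changes are given on 2 scales. On the TMM scale, counts are scaled so that a trimmed mean of the genes sits near no change. A change is relative to the other genes, and levels are CPM on this scale. Most genes were still called changed on it with dCeMM-2, dCeMM-3, dCeMM-4 and THZ531, as given below. On the spike-in scale, levels are reads per 1000 spike-in reads. Spike-in reads made up 0.179% ± 0.0200 (SD, n = 3) of gene and spike-in reads together in DMSO and 0.176% ± 0.0193 in dCeMM-1. They made up 0.512% ± 0.0784 in dCeMM-2, 0.542% ± 0.0699 in dCeMM-3 and 0.531% ± 0.0992 in THZ531. These 3 shares are 2.86, 3.02 and 2.96 times the DMSO share. In dCeMM-4 the share was 0.234% ± 0.0497, or 1.31 times that in DMSO. A two-sided exact permutation test gave p = 0.1 for dCeMM-2, dCeMM-3 and THZ531, the smallest that 3 against 3 libraries allow, p = 0.2 for dCeMM-4 and p = 1 for dCeMM-1; adjusted over the 5 comparisons these are 0.167, 0.25 and 1. The median of all genes on the spike-in scale accordingly stood at log2 0.10, -1.80, -1.96, -0.56 and -1.94 for the 4 dCeMM compounds in numerical order and THZ531. In bulk samples fewer cells and less RNA per cell cannot be told apart, and the labels do not state what the amount of spike-in was matched to, cells or RNA.

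On the TMM scale ZFP36, ZFP36L1, ZFP36L2, BTG1, BTG3 and TOB1 rose with dCeMM-2, and TOB2 and ELAVL1 fell. With dCeMM-3 ZFP36 rose and all the others fell, though the TOB1 and ELAVL1 calls depended on the fit, as given below. With dCeMM-2, 6 of 9 rose and 2 fell (edgeR quasi-likelihood test, adjusted p, or FDR, under 0.05 over all genes tested), where 37.1% of all genes rose and 41.2% fell. With dCeMM-3, 1 of 9 rose and 8 fell, against 35.9% and 45.1% of all genes. With dCeMM-4, 6 rose and 1 fell, against 32.9% and 35.3%. With THZ531, 4 rose and 3 fell, against 35.8% and 43.7%. With dCeMM-1, 2 rose and 1 fell, against 16.5% and 14.8%, so the count is near its background. The median log2 fold change of the 9 was 0.85 in dCeMM-2, -0.76 in dCeMM-3, 0.52 in dCeMM-4, 0.18 in THZ531 and 0.12 in dCeMM-1, beside all-gene medians of -0.02, -0.15, 0.01, -0.10 and 0.03. These 5 comparisons share the same 3 DMSO libraries, so they are set side by side and not compared by their overlap.

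Measured against spike-in RNA, ZFP36, ZFP36L1 and TOB1 rose with dCeMM-2, ZFP36 with THZ531, and ZFP36L1, BTG1 and TOB1 with dCeMM-4, and none of the 9 was called higher with dCeMM-1 or dCeMM-3. With dCeMM-2, 3 of 9 rose and 5 fell, where 1.48% of all genes rose and 83% fell. With dCeMM-3, 0 rose and 9 fell, against 1.12% and 83.7%; all 9 had an unadjusted p under 0.05. With dCeMM-4, 3 rose and 3 fell, against 6.3% and 48%, and with THZ531, 1 rose and 7 fell, against 1.32% and 84.7%. With dCeMM-1, 0 of 9 were called by edgeR in either direction, against 2.83% and 1.34% of all genes, and 2 had an unadjusted p under 0.05. Those were BTG2 at log2 0.67 (SE 0.23) and TOB1 at 0.68 (SE 0.24), and both passed when only the dCeMM-1 and DMSO libraries were fitted. SEs on this scale were mostly 0.21 to 0.26, wider than on the TMM scale, and the error of the spike-in counts of a library enters every gene alike.

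**Figure D1:**
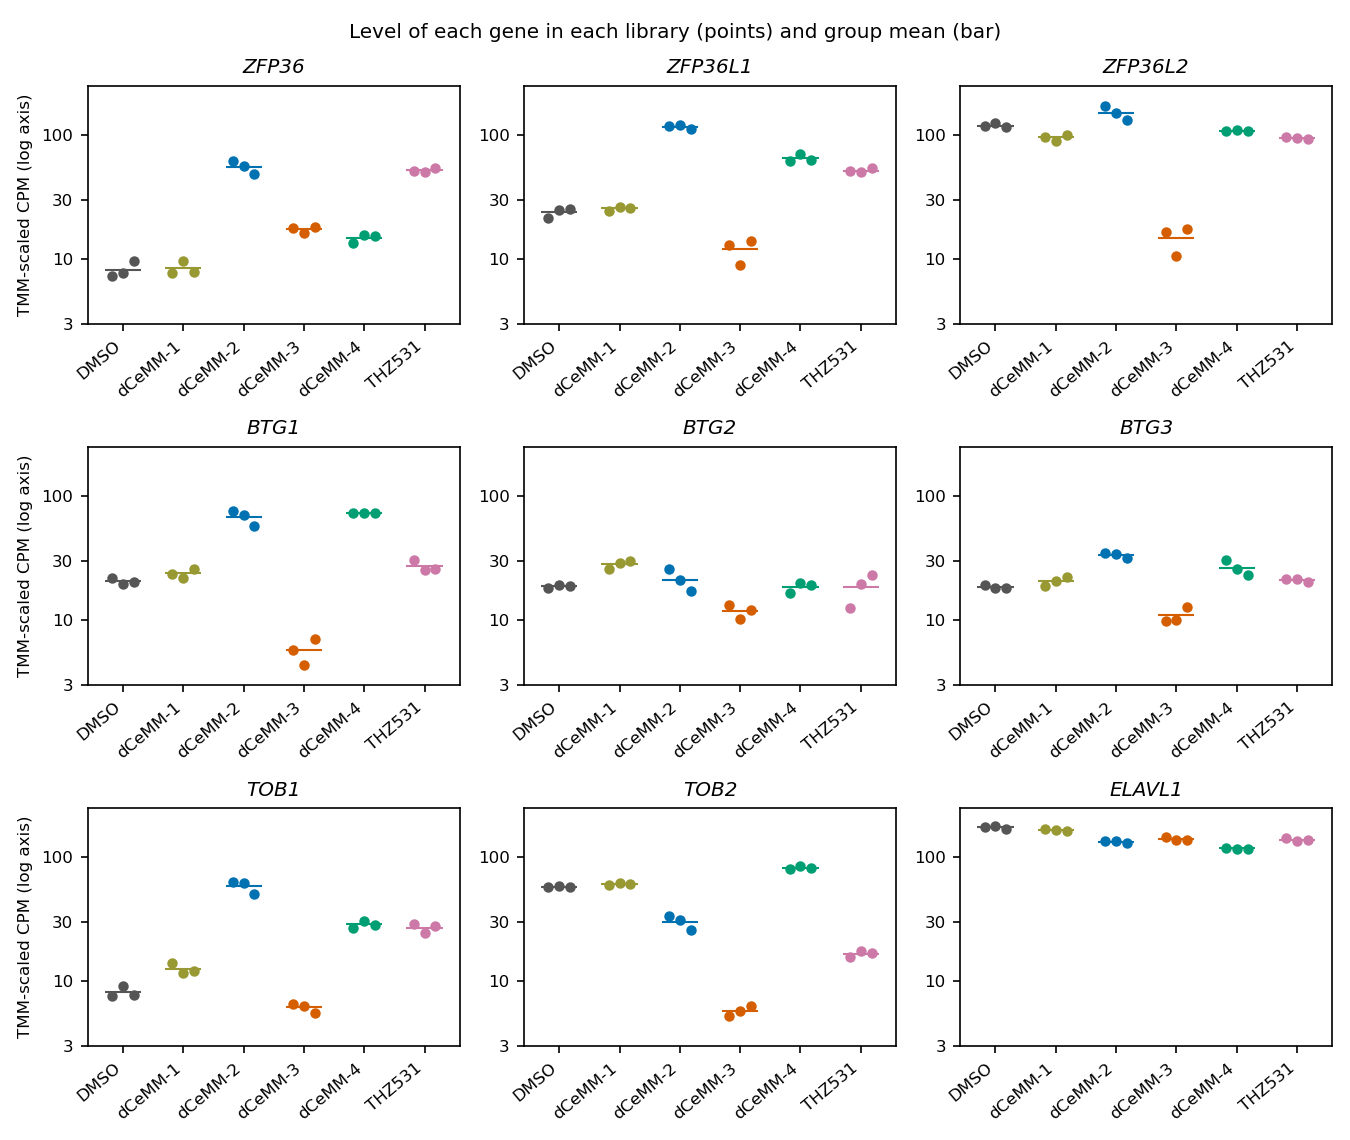
TMM-scaled CPM (log axis) of each of the 9 genes in every library, with 3 points per group and a bar at the group mean. dCeMM-3 (orange) gives the lowest group mean for 7 genes, all but ZFP36 and ELAVL1.

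ZFP36, the founding AU-rich-element binder and an immediate-early gene, rose with 4 of the compounds on the TMM scale. Its 3 DMSO libraries, in replicate order here and below, stood at 7.28, 7.77 and 9.57 CPM. In dCeMM-2 it reached 61.6, 56.1 and 48.8 CPM, and in THZ531 51.7, 50.5 and 54.5 CPM. dCeMM-3 libraries held 17.7, 16.3 and 18.2 CPM and dCeMM-4 libraries 13.5, 15.6 and 15.2 CPM, whereas dCeMM-1, at 7.73, 9.66 and 7.92 CPM, overlapped DMSO. The fold changes were 7.09 for dCeMM-2 (log2 2.83, SE 0.11, FDR 2.3e-23), 6.63 for THZ531 (FDR 4.3e-23), 2.22 for dCeMM-3 (FDR 7.6e-11) and 1.88 for dCeMM-4 (FDR 2.3e-08). By group mean, dCeMM-2 and THZ531 overlapped at the top, followed by dCeMM-3, dCeMM-4, and then dCeMM-1 and DMSO, which overlapped.

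Against spike-in RNA ZFP36 still stood higher in dCeMM-2 and THZ531 and stood lower in dCeMM-3. DMSO held 3.93, 5.24 and 6.47 reads per 1000 spike-in reads, dCeMM-2 10.7, 12.1 and 7.75, and THZ531 10.7, 7.94 and 8.66, with no overlap with DMSO in either case. The log2 changes were 1.01 (SE 0.24, FDR 2.9e-05) and 0.85 (SE 0.24, FDR 0.00044). dCeMM-3 libraries held 3.18, 2.40 and 3.75, all below DMSO, so the sign turned to -0.70 (SE 0.24, FDR 0.0047). In dCeMM-4 the value was 0.32 (SE 0.24, FDR 0.26); without dCeMM-4 replicate 1, the library with the highest spike-in share of its group, it was 0.54 and passed at FDR 0.047.

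ZFP36L1, a paralog known for roles in B-cell quiescence and in limiting the cell cycle, rose with dCeMM-2, dCeMM-4 and THZ531 and fell with dCeMM-3 on the TMM scale. DMSO libraries held 21.5, 24.8 and 25.5 CPM and dCeMM-2 libraries 119, 120.3 and 113 CPM. dCeMM-4 libraries stood at 61.7, 71.0 and 62.6 CPM and THZ531 libraries at 51.6, 50.2 and 53.9 CPM, while dCeMM-3 libraries fell below DMSO at 12.9, 9.01 and 14.0 CPM. Only dCeMM-1, at 24.5 to 26.4 CPM, overlapped DMSO. The log2 changes were 2.31 (SE 0.09, FDR 3.8e-23), 1.46 (FDR 1.1e-16), 1.13 (FDR 1.4e-13) and -0.96 (SE 0.11, FDR 5.1e-10) in that order. Against spike-in RNA it stayed up in dCeMM-4 at 0.89 (FDR 0.00019) and in dCeMM-2 at 0.51 (FDR 0.023), and turned to -0.73 in THZ531 (FDR 0.0012) and -2.79 in dCeMM-3. The dCeMM-2 call on that scale was lost without DMSO replicate 1 (log2 0.35, FDR 0.18) or without dCeMM-2 replicate 2 (0.36, FDR 0.14).

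ZFP36L2, the paralog that is prominent in haematopoietic progenitors, was the most abundant of the 3 per length in DMSO and the one that fell furthest. DMSO libraries held 118, 125 and 116 CPM, and dCeMM-3 libraries 16.5, 10.6 and 17.5 CPM, a 7.95-fold drop (log2 -2.99, SE 0.11, FDR 1.3e-23). dCeMM-2 libraries stood at 172, 151 and 132 CPM, above DMSO (log2 0.34, FDR 0.00087). THZ531 libraries, at 97.3, 94.7 and 92.9 CPM, and dCeMM-1 libraries, at 97.4, 90.3 and 101 CPM, were below DMSO, at -0.34 (FDR 0.00092) and -0.32 (FDR 0.0048). dCeMM-4 libraries (108, 109.9 and 108 CPM) also lay below every DMSO library, at -0.15, which did not pass (FDR 0.14). Relative to spike-in RNA it fell with all compounds other than dCeMM-1, to log2 values of -4.80 in dCeMM-3, -2.19 in THZ531, -1.45 in dCeMM-2 and -0.71 in dCeMM-4.

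The 3 ZFP36 paralogs therefore changed their proportions. Per kilobase of exon, ZFP36L2 made up 78.8% ± 2.16 (SD, n = 3) of the summed CPM of the family in DMSO, ZFP36L1 11.3% ± 0.774 and ZFP36 9.92% ± 1.46. ZFP36L2 took 44.7% ± 1.45 in dCeMM-2, 41.6% ± 1.33 in THZ531, 59.5% ± 1.48 in dCeMM-4 and 26.5% ± 3.43 in dCeMM-3, with no library overlapping DMSO. In dCeMM-1 it took 73.9% ± 2.41, also without overlap. ZFP36 became the leading paralog in dCeMM-3 at 58.2% ± 4.83, and stood level with ZFP36L2 in THZ531 at 42.1% ± 1.01. The sum of the family moved from 41.2 ± 1.39 CPM per kilobase in DMSO to 91.4 ± 9.14 in dCeMM-2, 61.7 ± 1.15 in THZ531, 49.3 ± 1.78 in dCeMM-4 and 14.98 ± 2.02 in dCeMM-3. Per 1000 spike-in reads the same sum was 26.0 ± 3.899 reads per kilobase in DMSO, 16.7 ± 3.47 in dCeMM-2, 21.0 ± 4.97 in dCeMM-4, 10.8 ± 1.83 in THZ531 and 2.70 ± 0.767 in dCeMM-3. For dCeMM-1 the family sum was 35.2 ± 0.946 CPM per kilobase, with every library below DMSO. Per 1000 spike-in reads it was 23.1 ± 3.27 there, overlapping DMSO.

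**Figure D2:**
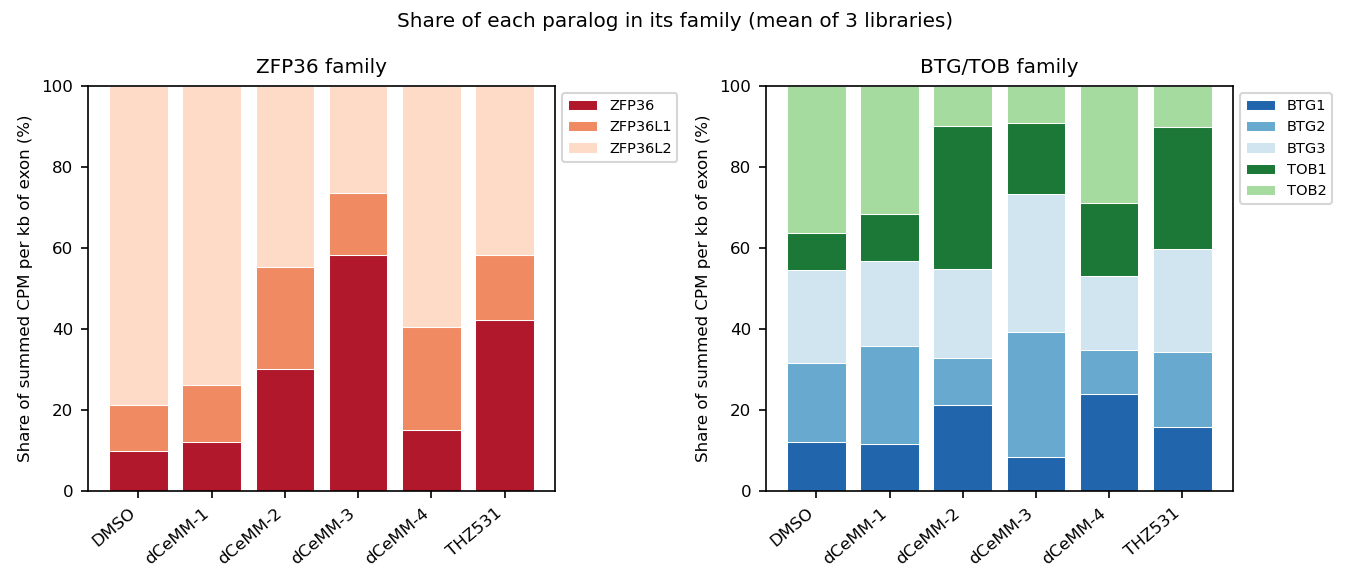
Share of each paralog in the summed CPM per kilobase of exon of its family (mean of 3 libraries per group), with the ZFP36 family on the left and the BTG and TOB genes on the right. ZFP36L2 takes 78.8% in DMSO and 26.5% in dCeMM-3, and TOB2 takes 36.2% in DMSO and about 9 to 10% in dCeMM-2, dCeMM-3 and THZ531.

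BTG1, an antiproliferative gene that is often lost or mutated in lymphoid leukaemia, rose with dCeMM-2 and dCeMM-4 to about the same CPM and fell with dCeMM-3. DMSO libraries held 21.9, 19.5 and 20.3 CPM, dCeMM-2 libraries 75.4, 71.2 and 57.6 CPM and dCeMM-4 libraries 72.9, 73.7 and 72.6 CPM. dCeMM-3 libraries held 5.71, 4.35 and 6.98 CPM, and THZ531 libraries 30.6, 25.5 and 25.7 CPM, just above DMSO. The log2 changes were 1.73 in dCeMM-2 (SE 0.10, FDR 5.2e-18), 1.83 in dCeMM-4 (SE 0.10, FDR 1.8e-18), -1.84 in dCeMM-3 (SE 0.14, FDR 2.7e-15) and 0.40 in THZ531 (FDR 0.0012). Against spike-in RNA it rose only in dCeMM-4, to 23.8, 36.4 and 33.0 reads per 1000 spike-in reads from 11.8, 13.2 and 13.7 in DMSO (log2 1.27, SE 0.22, FDR 7e-08), and the dCeMM-2 value was -0.04 (SE 0.22, FDR 0.88).

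TOB1, a negative regulator of proliferation in T cells, rose as far as ZFP36 did with dCeMM-2. Its DMSO libraries stood at 7.51, 9.17 and 7.66 CPM and its dCeMM-2 libraries at 63.4, 62.5 and 50.7 CPM, 7.18-fold higher (log2 2.84, SE 0.11, FDR 2.3e-23). In dCeMM-4 it held 26.9, 30.6 and 28.6 CPM (log2 1.80, FDR 1.3e-16) and in THZ531 28.7, 24.4 and 28.1 CPM (log2 1.72, FDR 4e-16). TOB1 also rose with dCeMM-1, to 14.0, 11.7 and 12.1 CPM (log2 0.60, SE 0.12, FDR 0.00024), with no overlap with DMSO. In dCeMM-3 the libraries lay just below DMSO at 6.57, 6.32 and 5.47 CPM (log2 -0.43, SE 0.15, FDR 0.0079). That last call was lost without DMSO replicate 2 (-0.32, FDR 0.089), when only the dCeMM-3 and DMSO libraries were fitted (-0.20, FDR 0.26), and with DESeq2 (-0.27, FDR 0.099). Per spike-in read TOB1 rose in dCeMM-2 by log2 1.08 (SE 0.24, FDR 6.7e-06) and in dCeMM-4 by 1.26 (SE 0.24, FDR 5.3e-07). There it stood at -0.11 in THZ531 (FDR 0.66) and fell to -2.24 in dCeMM-3.

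TOB2, the close paralog of TOB1, fell with dCeMM-2 and THZ531, where TOB1 rose, and moved in the same direction as TOB1 with dCeMM-3 and dCeMM-4. DMSO libraries held 57.4, 58.1 and 57.6 CPM, and dCeMM-3 libraries 5.25, 5.69 and 6.27 CPM, a 10.1-fold drop (log2 -3.33, SE 0.10, FDR 5.3e-27) and the largest fall of the 9. It also fell in THZ531, to 15.7, 17.6 and 16.8 CPM (log2 -1.79, FDR 1.6e-20), and in dCeMM-2, to 33.3, 31.1 and 25.9 CPM (log2 -0.92, FDR 1.1e-12). dCeMM-4 libraries stood above DMSO at 80.9, 85.2 and 81.4 CPM (log2 0.52, SE 0.08, FDR 1.9e-07). Against spike-in RNA TOB2 was at -0.05 in dCeMM-4 (SE 0.21, FDR 0.87) and fell to -2.71 in dCeMM-2, -3.65 in THZ531 and -5.15 in dCeMM-3. The dCeMM-3 libraries held 0.946, 0.841 and 1.29 reads per 1000 spike-in reads, where DMSO held 31.0, 39.1 and 39.0.

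BTG2, a p53 target, was with TOB1 1 of the 2 genes that rose with dCeMM-1 on the TMM scale. DMSO libraries held 18.3, 19.1 and 18.8 CPM and dCeMM-1 libraries 25.9 to 30.2 CPM, all above them (log2 0.60, SE 0.14, FDR 0.0021). It fell with dCeMM-3 to 13.3, 10.2 and 12.1 CPM (log2 -0.64, SE 0.16, FDR 0.00097). In dCeMM-2 (25.7, 21.0 and 17.1 CPM) and dCeMM-4 (16.4, 20.0 and 19.4 CPM) its libraries straddled DMSO, with log2 values of 0.21 (FDR 0.22) and -0.01 (FDR 0.96). The dCeMM-2 value ran from 0.03 to 0.31 when single libraries were left out, and passed at 0.31 (FDR 0.016) when only those libraries and DMSO were fitted. THZ531 libraries spread from 12.6 to 23.1 CPM, with replicate 1 lowest, and gave -0.02 (SE 0.16, FDR 0.9). On the other scale, per spike-in read, BTG2 fell to -1.59 in dCeMM-2, -2.46 in dCeMM-3, -1.91 in THZ531 and -0.56 in dCeMM-4. The dCeMM-4 call (FDR 0.028) was lost without DMSO replicate 2 (-0.48, FDR 0.13), without DMSO replicate 3 (-0.51, FDR 0.087) and without dCeMM-4 replicate 1 (-0.33, FDR 0.23).

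BTG3, another antiproliferative member of the family, moved in the same directions as BTG1 on the TMM scale, with smaller values. From 18.1 to 19.2 CPM in DMSO it went to 31.7 to 34.5 CPM in dCeMM-2 (log2 0.85, FDR 2.8e-09), 23.3 to 30.4 CPM in dCeMM-4 (0.51, FDR 4.2e-05) and 9.92 to 12.9 CPM in dCeMM-3 (-0.76, FDR 3.2e-07). In THZ531 it stood at 20.2 to 21.6 CPM (0.18, FDR 0.12), a value that passed at 0.34 with DESeq2 (FDR 0.0061) and at 0.37 when only those libraries and DMSO were fitted (FDR 0.0016). Relative to spike-in RNA it fell in dCeMM-2, dCeMM-3 and THZ531, to -0.92, -2.56 and -1.65, and was at -0.07 in dCeMM-4 (FDR 0.82).

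Within the BTG and TOB genes the make-up turned as well. Per kilobase of exon, TOB2 led in DMSO with 36.2% ± 0.337 of the summed CPM, followed by BTG3 with 23.0% ± 0.748, BTG2 with 19.4% ± 0.464, BTG1 with 12.1% ± 0.719 and TOB1 with 9.21% ± 0.986. TOB1 led in dCeMM-2 with 35.3% ± 0.741 and in THZ531 with 29.98% ± 2.48, where TOB2 took 9.95% ± 0.131 and 10.2% ± 0.646. BTG3 and BTG2 led in dCeMM-3 with 34.0% ± 3.35 and 31.0% ± 2.91. TOB2 kept the lead in dCeMM-4 with 28.8% ± 0.421 and in dCeMM-1 with 31.5% ± 1.13. The sum of the 5 genes went from 34.9 ± 0.342 CPM per kilobase in DMSO to 66.2 ± 7.61 in dCeMM-2, 62.7 ± 1.55 in dCeMM-4, 35.8 ± 1.20 in THZ531 and 13.9 ± 1.13 in dCeMM-3. Per 1000 spike-in reads the sum was 22.0 ± 2.67 reads per kilobase in DMSO, 12.2 ± 2.84 in dCeMM-2, 26.7 ± 5.77 in dCeMM-4, 6.24 ± 0.907 in THZ531 and 2.49 ± 0.597 in dCeMM-3, so that in dCeMM-2 it was above DMSO on the first scale and below it on the second. For dCeMM-1 the sum was 42.5 ± 1.64 CPM per kilobase and 28.0 ± 4.34 reads per kilobase per 1000 spike-in reads. Every dCeMM-1 library lay above DMSO on both scales.

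ELAVL1, the stabilising counterpart, fell with all compounds but dCeMM-1, by at most 0.57 on the log2 TMM scale. DMSO libraries held 175, 179 and 169 CPM, dCeMM-2 libraries 135, 135 and 131 CPM, dCeMM-3 libraries 146, 138 and 138 CPM, dCeMM-4 libraries 119.7, 116 and 117 CPM and THZ531 libraries 143, 136 and 137 CPM. All of these lay below DMSO, and dCeMM-1 libraries, at 168, 166 and 164 CPM, lay just below it too. The log2 changes were -0.38 (FDR 4.4e-07), -0.31 (FDR 1.5e-05), -0.57 (FDR 9e-11) and -0.33 (FDR 5.7e-06), each with an SE of 0.06, and -0.07 in dCeMM-1 (FDR 0.4). The dCeMM-3 call was lost when only the dCeMM-3 and DMSO libraries were fitted (-0.08, FDR 0.38). Against spike-in RNA ELAVL1 fell to -2.17, -2.13, -1.14 and -2.18 in dCeMM-2, dCeMM-3, dCeMM-4 and THZ531, each below the all-gene median given above. That median includes non-coding genes. Protein-coding genes with more than 3 exons, as ELAVL1 has, had medians of -1.97, -2.14, -0.63 and -2.12. ELAVL1 was thus close to them in dCeMM-3 and THZ531.

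**Figure D3:**
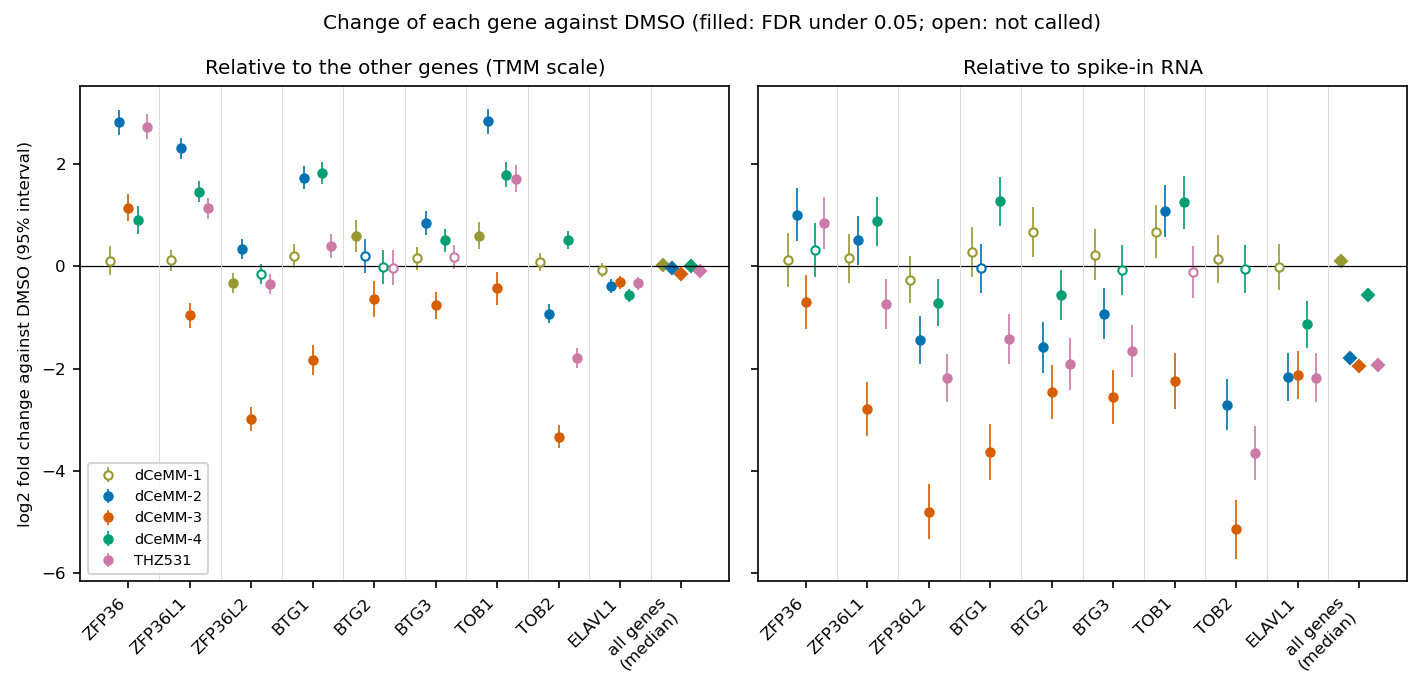
log2 fold change of each of the 9 genes against DMSO with its 95% interval, on the TMM scale (left) and relative to spike-in RNA (right), with the median of all 15055 genes at the far right of each panel. ZFP36 and TOB1 in dCeMM-2 sit near 2.8 on the left and near 1 on the right, while every dCeMM-3 value on the right is below 0.

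At their matched multiple of EC50, dCeMM-2 and dCeMM-3 differed in nearly all 9 genes. On the TMM scale 8 were higher with dCeMM-2 and 0 lower (edgeR; DESeq2 called 1 lower, ELAVL1), where 26.6% of all genes were higher and 16.5% lower. With DESeq2 size factors, 51.2% of the called genes in this comparison were higher, in place of 61.8%. The differences were log2 3.57 for BTG1 (SE 0.12, FDR 4e-25), 3.33 for ZFP36L2 (SE 0.11, FDR 2e-24), 3.27 for ZFP36L1 (SE 0.10, FDR 1.2e-26) and 3.27 for TOB1 (SE 0.12, FDR 1.5e-24). TOB2 differed by 2.41, ZFP36 by 1.68, BTG3 by 1.61 and BTG2 by 0.84. ELAVL1 gave -0.07, with a 95% interval of -0.21 to 0.06. The spike-in share was 0.512% and 0.542% in the 2 groups, and relative to spike-in RNA dCeMM-2 gave 8 higher and 0 lower again, against 18.4% and 4.32% of all genes (8 had an unadjusted p under 0.05), with differences from 0.87 to 3.60 and ELAVL1 at -0.03 (interval -0.49 to 0.42).

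Between dCeMM-2 and dCeMM-4 the picture depended on the gene and on the scale. On the TMM scale 6 genes were higher with dCeMM-2 and 1 lower, against 38.4% and 38.9% of all genes. ZFP36 was higher by log2 1.92 (SE 0.10, FDR 1e-19), TOB1 by 1.05, ZFP36L1 by 0.85, ZFP36L2 by 0.49, BTG3 by 0.34 and ELAVL1 by 0.18, and TOB2 was lower at -1.44 (SE 0.08, FDR 1.6e-18). The BTG3 and ELAVL1 calls were lost without the filter on low counts (0.24, FDR 0.062, and 0.08, FDR 0.54). BTG1 gave -0.09 (95% interval -0.29 to 0.10) and BTG2 0.22 (-0.11 to 0.54), which passed at 0.28 (FDR 0.027) when only the 2 groups were fitted. When scaled by spike-in RNA, only ZFP36 was higher with dCeMM-2, at 0.69 (SE 0.22, FDR 0.0035), and 6 genes were lower, against 2.63% and 66.8%. TOB1 (-0.18, interval -0.66 to 0.30) and ZFP36L1 (-0.37, interval -0.84 to 0.10) were not called there. ZFP36L1 passed at -0.53 without dCeMM-2 replicate 2 (FDR 0.038) and at -0.56 without dCeMM-4 replicate 1 (FDR 0.012).

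Most of the 9 genes were lower with dCeMM-3 than with dCeMM-4. On the TMM scale 7 genes were lower with dCeMM-3 and 2 higher, against 41.2% and 41.5% of all genes. TOB2 was lower at -3.85 (SE 0.10, FDR 1.3e-29), BTG1 at -3.66 (SE 0.12, FDR 1.7e-26), ZFP36L2 at -2.84, ZFP36L1 at -2.42, TOB1 at -2.23, BTG3 at -1.27 and BTG2 at -0.63. ELAVL1 was higher at 0.26 (FDR 0.00018) and ZFP36 at 0.24 (SE 0.11, FDR 0.041). The ZFP36 call was lost without dCeMM-3 replicate 1 or 3 and without any single dCeMM-4 library, with log2 values of 0.17 to 0.26, and without the filter on low counts (0.12, FDR 0.51). ELAVL1 was also not called without that filter (0.14, FDR 0.19). Relative to spike-in RNA all 9 were lower with dCeMM-3 and 0 higher, against 65.3% and 5.35%, from -0.996 for ELAVL1 to -5.10 for TOB2; all 9 had an unadjusted p under 0.05.

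**Figure D4:**
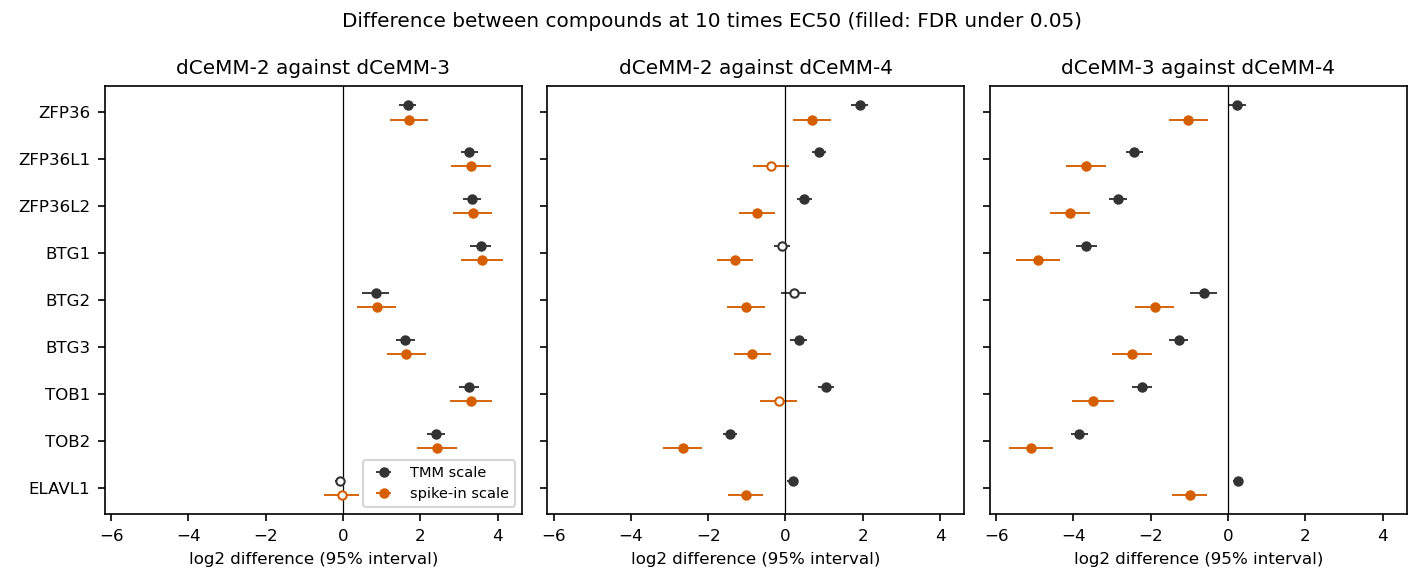
log2 difference with its 95% interval for each of the 9 genes between dCeMM-2, dCeMM-3 and dCeMM-4, on the TMM scale (dark) and the spike-in scale (orange). Both scales nearly coincide for dCeMM-2 against dCeMM-3, while the spike-in values lie further left where dCeMM-4 is the second compound.

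THZ531 was given at a fixed concentration and not at a multiple of its EC50, so its values are set beside those of the others without a comparison. Its TMM values were 2.73 for ZFP36, 1.72 for TOB1, 1.13 for ZFP36L1, 0.40 for BTG1, -0.34 for ZFP36L2 and -1.79 for TOB2. In dCeMM-2 the same genes gave 2.83, 2.84, 2.31, 1.73, 0.34 and -0.92, and in dCeMM-3 1.15, -0.43, -0.96, -1.84, -2.99 and -3.33.

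Per kilobase of exon, the order of the genes in DMSO ran from ZFP36L2 at 32.4 ± 1.35 CPM per kilobase and ELAVL1 at 25.0 ± 0.755, through TOB2 at 12.6 ± 0.0778, BTG3 at 8.03 ± 0.269 and BTG2 at 6.79 ± 0.159, to ZFP36L1 at 4.64 ± 0.406, BTG1 at 4.24 ± 0.247, ZFP36 at 4.08 ± 0.601 and TOB1 at 3.22 ± 0.365 (SD, n = 3). The ranges of ZFP36L1, BTG1 and ZFP36 overlapped, as did those of ZFP36 and TOB1. The relatives outside the set were nearly silent: over all 18 libraries BTG4 had 4 counts, ELAVL2 46, ELAVL3 14 and ELAVL4 0.

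Across the 18 libraries, which include the groups compared above and share their scaling, log2 CPM of ZFP36L1 and TOB1 went together with a Pearson r of 0.970, BTG1 and BTG3 with 0.957, ZFP36L1 and BTG3 with 0.929 and ZFP36L1 and BTG1 with 0.924. BTG1 and TOB1 gave 0.859. The paralogs TOB1 and TOB2 gave 0.283, ZFP36 and ZFP36L2 0.123, and ZFP36 and TOB2 -0.426. Of 12332 protein-coding genes tested, those with the pattern most like each gene were FBXO33 (0.997) and SOCS6 (0.993) for BTG1, AMMECR1L (0.997) and CXXC5 (0.996) for TOB2, and C3orf58 (0.992) and RHEB (0.987) for ZFP36L1. IER2 (0.979) and MT2A (0.972) were nearest to ZFP36, KLF6 (0.979) and MYLIP (0.972) to BTG3, ARGLU1 (0.974) and PCNA (0.971) to TOB1, and CDK5R1 (0.958) and SRSF7 (0.955) to ZFP36L2. For ELAVL1 they were BRCC3 (0.979) and RAD51C (0.978), and for BTG2 RERE and GLI4, both at 0.863. These correlations describe likeness over 6 groups and are not tests.

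Genes of the deadenylase complex that both families recruit fell together with dCeMM-2, dCeMM-3 and THZ531. All 12 listed CCR4-NOT genes were tested, and on the TMM scale 12 of 12 fell with dCeMM-2 (median log2 -1.23), with dCeMM-3 (-1.43) and with THZ531 (-1.19), against the 41.2%, 45.1% and 43.7% of all genes given above. CNOT7, a catalytic subunit, changed by -1.32 in dCeMM-2 (SE 0.07, FDR 4.5e-20), and CNOT9 by -1.51. In dCeMM-3 the lowest FDRs were those of CNOT2, a scaffold subunit, at -2.61 and of CNOT8, the paralog of CNOT7, at -2.29. In THZ531 CNOT9 changed by -1.81 and CNOT2 by -1.61. With dCeMM-4, 3 of the 12 rose and 6 fell (median -0.18), against 32.9% and 35.3% of all genes. Among them were CNOT8 at 0.46 and CNOT4 at 0.40, and CNOT10 at -1.11 and CNOT7 at -0.90. With dCeMM-1, 1 of the 12 rose (CNOT8, 0.21) and 1 fell (TNKS1BP1, -0.31), against 16.5% and 14.8% of all genes. Against spike-in RNA 12 of 12 fell with dCeMM-2, dCeMM-3 and THZ531 and 7 of 12 with dCeMM-4, where 83%, 83.7%, 84.7% and 48% of all genes fell.

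Other parts of the decay machinery split. The shares of all genes that rose and fell, given above for each compound, apply to these lists too: 37.1% and 41.2% with dCeMM-2, 35.9% and 45.1% with dCeMM-3, 32.9% and 35.3% with dCeMM-4, 35.8% and 43.7% with THZ531, and 16.5% and 14.8% with dCeMM-1. Of 7 genes for the PAN2-PAN3 and PARN deadenylases and poly-A-binding proteins, 4 rose and 2 fell on the TMM scale with dCeMM-2, 4 and 3 with dCeMM-3, 5 and 2 with dCeMM-4, 5 and 2 with THZ531, and 2 and 0 with dCeMM-1. PABPC1, the main cytoplasmic poly-A-binding protein, rose by 1.25, 1.28 and 1.35 in dCeMM-2, dCeMM-3 and THZ531, and PARN changed by -1.19, -1.26 and -0.995; relative to spike-in RNA PABPC1 fell to -0.53, -0.54 and -0.50. Of 16 decapping and 5′ decay genes, 7 rose and 8 fell with dCeMM-2, 8 and 8 with dCeMM-3, 5 and 7 with dCeMM-4, 5 and 8 with THZ531 and 5 and 1 with dCeMM-1. LSM4 rose by 1.11, 1.42 and 1.17 and the decapping enhancer EDC3 changed by -1.92, -2.24 and -1.70 in dCeMM-2, dCeMM-3 and THZ531. Of 15 exosome and Ski genes, 2 rose and 9 fell with dCeMM-2, 3 and 10 with dCeMM-3, 2 and 9 with dCeMM-4, 2 and 10 with THZ531 and 1 and 8 with dCeMM-1, with EXOSC4 at -3.68, -4.93 and -3.82 in dCeMM-2, dCeMM-3 and THZ531. Relative to spike-in RNA 0 genes of these 3 lists rose with any compound in edgeR, and with dCeMM-2 all 7, 16 and 15 fell, where 1.48% of all genes rose and 83% fell.

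Among 17 other RNA-binding regulators of unstable mRNAs, 6 rose and 10 fell with dCeMM-2, 2 and 10 with dCeMM-3, 9 and 5 with dCeMM-4, 8 and 9 with THZ531 and 4 and 3 with dCeMM-1 (TMM scale). PUM2, a Pumilio repressor that recruits CCR4-NOT, changed by -1.89, -2.45, -0.64 and -1.54 in dCeMM-2, dCeMM-3, dCeMM-4 and THZ531. YBX1 rose by 1.28, 1.23 and 1.36 in dCeMM-2, dCeMM-3 and THZ531, and CPEB2 by 1.71 in dCeMM-4. Of 8 partners and regulators of the proteins, 7 rose and 1 fell with dCeMM-2, 3 and 5 with dCeMM-3, 5 and 2 with dCeMM-4, 6 and 2 with THZ531 and 0 and 3 with dCeMM-1. MAPK14 (p38), whose pathway inactivates ZFP36 through the kinase MAPKAPK2, changed by -1.79 in dCeMM-2, -2.16 in dCeMM-3, -0.27 in dCeMM-4 and -1.80 in THZ531, while MAPKAPK2 rose by 0.84 in dCeMM-2 and 1.05 in dCeMM-4. PPP2CA, the catalytic subunit of the phosphatase PP2A, changed by -2.36 in dCeMM-3 and rose by 0.81 in dCeMM-4. When scaled by spike-in RNA, all 17 and all 8 genes of these lists fell with dCeMM-2, dCeMM-3 and THZ531, where 83%, 83.7% and 84.7% of all genes fell. With dCeMM-4, 2 of the 17 rose and 7 fell, and 1 of the 8 rose and 3 fell, against 6.3% and 48% of all genes. CPEB2 (1.12) and MAPKAPK2 (0.49) were among those that rose.

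Known mRNA targets of ZFP36 proteins or ELAVL1 moved in both directions, with dCeMM-2 in numbers near the 37.1% and 41.2% of all genes that rose and fell. Of 24 listed, 21 passed the filter, and on the TMM scale 8 rose and 7 fell with dCeMM-2 (median log2 0.01), 5 and 13 with dCeMM-3 (-0.70), 8 and 7 with dCeMM-4 (0.41), 8 and 9 with THZ531 (-0.15) and 1 and 8 with dCeMM-1 (-0.18). CDKN1A, the p21 inhibitor of cyclin-dependent kinases, rose with all 5, by 0.34 in dCeMM-1, 4.09 in dCeMM-2, 0.84 in dCeMM-3, 2.09 in dCeMM-4 and 4.71 in THZ531. Per spike-in read 5 of the 21 rose and 15 fell with dCeMM-2, 1 and 19 with dCeMM-3, 2 and 10 with dCeMM-4, 5 and 15 with THZ531 and 0 and 1 with dCeMM-1, beside all-gene shares of 1.48% and 83%, 1.12% and 83.7%, 6.3% and 48%, 1.32% and 84.7%, and 2.83% and 1.34%. CDKN1A rose there in dCeMM-2 (2.30), dCeMM-4 (1.53) and THZ531 (2.86), was not called in dCeMM-1 (0.39, FDR 0.36) and fell by 0.99 in dCeMM-3. IL1B, an inflammatory cytokine, changed by -4.11, -2.19 and -3.69 in dCeMM-2, dCeMM-4 and THZ531 on the TMM scale, and the kinase gene PIM1 by -2.96 in dCeMM-3. Over the 21 targets, TMM changes ran from -4.11 to 5.79 in dCeMM-2 and from -5.56 to 4.30 in dCeMM-3. They ran from -2.19 to 2.53 in dCeMM-4, from -3.69 to 6.25 in THZ531 and from -2.85 to 0.35 in dCeMM-1. Over the 1047 tested genes with the nonamer in the 3′ UTR, the median TMM change was -0.38 in dCeMM-2, -0.69 in dCeMM-3, -0.02 in dCeMM-4, -0.47 in THZ531 and 0.10 in dCeMM-1, and over the 11232 genes without it -0.19, -0.35, -0.05, -0.29 and 0.01.

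The genes are compact. At most 3 exons were annotated in 7 of the 9, all but BTG3 and ELAVL1 with 6 each, against 9.64% of 12332 tested protein-coding genes. Their median span was 5756 bp, from 2600 bp for ZFP36 to 47081 bp for ELAVL1, where the median of those genes was 33221 bp. Among the 1189 tested genes with at most 3 exons the median TMM change was -0.35 in dCeMM-2, -1.11 in dCeMM-3, 0.22 in dCeMM-4, -0.74 in THZ531 and 0.10 in dCeMM-1; among the 11143 with more exons it was -0.20, -0.33, -0.07, -0.28 and 0.01. Of these 1189 genes, 42.6% were higher and 8.83% lower in dCeMM-2 against dCeMM-3 on the TMM scale. The shares were 22.8% and 53.3% in dCeMM-2 against dCeMM-4, and 22.0% and 61.1% in dCeMM-3 against dCeMM-4. The part of exon number in the results for the 9 genes was not tested. Few counted reads fell to overlapping and look-alike genes. Reads that matched several genes (1.08 to 1.47% of all reads per library) or several positions were not counted. The counts below therefore cannot show how many such reads the 9 genes lost. LINC01619 and the antisense gene AC025164.1, which overlap BTG1, had 38 and 11 counts over all libraries, TOB1-AS1 had 14, BTG3-AS1 had 0, and the pseudogene TOB2P1 had 104, or 0.889% of the count of TOB2. The strand setting of the counting is not given in the sources used here, so reads of overlapping antisense genes cannot be told apart.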

How the data were processed

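The authors deposited 1 table per library of unnormalized read counts, for genes and for ERCC and SIRV spike-in sequences; per the submitters' processing notes, Trimmomatic 0.32, STAR 2.5.2b, Picard, HTSeq 0.11.2 and build GRCh38.p7 were used, with roles not stated. Reads not assigned to a gene were 34.2 to 50.5% of all reads per library, mostly placed at several positions (27.0 to 44.3%), and stayed out of library sizes and tests. Genes passed edgeR's filterByExpr by group. edgeR 4.0.16 (R 4.3.3) fitted a robust quasi-likelihood model to all 18 libraries, with 1 coefficient per group and 12 residual degrees of freedom, scaled by TMM or by summed spike-in counts. Benjamini-Hochberg adjustment ran over 15055 genes per comparison, with a threshold of 0.05. SEs were derived from each log2 change and its test statistic, and the 95% intervals use them with 12 degrees of freedom. The tests also borrow degrees of freedom across genes, so an interval and a call can differ. The procedure was tested on simulated data. Replicate libraries differed from each other beyond counting noise.

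The members, gene lists and markers were chosen with earlier results of these data known. Named are all 9 members, of each described list up to 2 genes per direction with the lowest FDR against DMSO on the TMM scale, and for each member the 2 protein-coding genes with the highest r of log2 CPM (prior count 2). In some lists only some of these are named. Alternatives were DESeq2 1.42.0, its size factors, no filter, only the groups compared, ERCC or SIRV alone, a replicate block and leaving out each library. Motifs and sites come from GENCODE 29 transcripts, promoter windows from RefSeq.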

Additional observations from a re-analysis of the deposited data

How the results depend on the processing

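Of 1584 recomputed changes of the 9 genes, 1550 kept their side of the threshold, 21 lost the call, 13 gained one, and 0 reversed a called direction. Values that were not called could change sign and still count as kept. BTG2 in THZ531, for example, ran from -0.24 to 0.17 on the TMM scale when single libraries were left out. Counts of called genes moved by more than 1.5 times, or to or from 0, in 4 comparisons. With DESeq2 and with its size factors, 1 gene in place of 0 was lower in dCeMM-2 against dCeMM-3 on the TMM scale (ELAVL1, -0.16). Without the filter on low counts, 0 genes in place of 2 were higher in dCeMM-3 against dCeMM-4 on that scale, and leaving out 1 library gave 1 to 2. With only the groups compared, 2 genes in place of 0 rose with dCeMM-1 on the spike-in scale (BTG2 and TOB1), and 2 in place of 1 fell with dCeMM-4 on the TMM scale (ZFP36L2, -0.14). Among smaller moves on the TMM scale were 7 in place of 8 lower with dCeMM-3 and 5 in place of 4 higher with THZ531 under DESeq2 and under its size factors, 4 in place of 6 higher in dCeMM-2 against dCeMM-4 without the filter, and, with only the groups compared, 6 in place of 8 lower with dCeMM-3, 7 in place of 6 higher with dCeMM-2 against DMSO and against dCeMM-4, and 5 in place of 4 higher with THZ531. On the spike-in scale 2 in place of 3 fell with dCeMM-4 without the filter or with only the groups compared. DESeq2 size factors moved the median of all genes by 0.16 in dCeMM-3, 0.12 in dCeMM-4 and 0.16 in THZ531 against DMSO, and by less than 0.1 elsewhere. Samples with the same replicate number did not deviate together (median r -0.0003 over 45 pairs, from -0.14 to 0.12). The check covers only deviations from group means and cannot tell whether such samples were cultured or handled together. The replicate block changed 0 of 144 calls, moved no log2 change by more than 0.036, and gave 6 genes higher with dCeMM-2 and 8 lower with dCeMM-3, as without it. Depth limits the low levels most. By group mean, BTG1, TOB1 and TOB2 in dCeMM-3, ZFP36 and TOB1 in DMSO and ZFP36 in dCeMM-1 stand below 10 CPM. BTG1 in dCeMM-3 is the lowest, at 5.68 CPM.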
